A study of Mus musculus with 12 samples.

Results

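The messages of 10 enzymes that make pyrimidine nucleotides and deoxynucleotides were followed in cultures of mouse embryonic fibroblasts, the matrix-making cells of connective tissue, that had been kept for 24 h with a compound acting on mTOR, a growth-controlling kinase, or with solvent. The genes were Cad, Dhodh, Umps, Ctps, Tyms, Tk1, Dut, Rrm1, Rrm2 and Dck, taken by symbol, and all 10 were found among the 49315 genes of the count tables and passed the filter on low counts. RNA was sequenced from cells given RapaLink-1 at 10 nM, Torin1 at 250 nM, rapamycin at 20 ng/ml or the solvent DMSO, with 3 libraries in each of the 4 groups. Rapamycin binds the protein FKBP12 and with it mTOR complex 1, Torin1 competes with ATP at the mTOR kinase, and RapaLink-1 carries both rapamycin and a kinase inhibitor, bridged by a linker. The labels give no genotype, strain or passage for the cells and name no treatment that all groups shared beyond the growth medium with serum. Since doses were not matched, a difference between compounds is a difference at these doses. Whether the 3 libraries of a group stem from separate cultures is not stated, and p-values here measure the spread among those libraries alone, which may be technical. For single genes the fit took most of its estimate of that spread from all genes tested together.

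Pyrimidines are built from glutamine, bicarbonate and aspartate: the trifunctional enzyme CAD makes dihydroorotate, DHODH of the inner mitochondrial membrane oxidises it to orotate, and UMPS turns orotate into UMP. CTP synthase makes CTP from UTP. Ribonucleotide reductase, a complex of the large subunit RRM1 with the small subunit RRM2, reduces ribonucleotides to deoxynucleotides, dUTPase and thymidylate synthase (TYMS) lead from dUTP to dTMP, and the kinases TK1 and DCK salvage deoxynucleosides. In dividing cells mTOR complex 1 is known to act on this pathway through phosphorylation of CAD by S6 kinase, and Rrm2, Tk1 and Tyms are known as genes whose messages are highest when cells enter S phase.

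Of these 10 genes, 9 fell with each compound against DMSO and 1, Ctps, rose. The 3 genes of UMP synthesis and the 6 genes of deoxynucleotide supply had separate ranges. Cad, Dhodh and Umps fell by 0.81 to 1.02 on the log2 scale with RapaLink-1 or Torin1 and by 0.51 to 0.64 with rapamycin. Rrm1, Rrm2, Tyms, Dut, Tk1 and Dck fell by 1.07 to 2.34 with RapaLink-1 or Torin1 and by 0.13 to 0.36 with rapamycin. The comparisons with DMSO share their 3 DMSO libraries, and those with rapamycin share the 3 rapamycin libraries.

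Calls were made at an adjusted p under 0.05 in the quasi-likelihood test of edgeR, adjusted by Benjamini-Hochberg over the 15917 genes tested. That test is the source of every adjusted p given for a single gene, unless another setting is named beside it. Such a setting may use another test or another set of genes. Calls were very common: against DMSO, 37.9% of all genes tested were called lower and 38.7% higher with RapaLink-1, 38.3% lower and 39.8% higher with Torin1, and 32.2% lower and 27.5% higher with rapamycin. All 10 genes also separated from DMSO without overlap between libraries, as did 77.6% of all genes with RapaLink-1, 78.5% with Torin1 and 63.0% with rapamycin. A call by itself therefore separates the 10 genes little from others, and the sizes of their changes say more. Their median log2 fold change was -1.16 with RapaLink-1, -1.22 with Torin1 and -0.33 with rapamycin, beside 0.03, 0.04 and 0.00 over all genes tested. Upper-quartile scaling in place of TMM moved the median of all genes to 0.16 with RapaLink-1 and with Torin1. With that scaling 30.3% of genes were called lower and 47.9% higher with RapaLink-1 against DMSO, and 25.5% lower and 34.4% higher with rapamycin against DMSO, while the medians of the 10 genes were -1.02 with RapaLink-1, -1.09 with Torin1 and -0.27 with rapamycin.

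The markers went with the fibroblast label. Each of 12 fibroblast markers reached 1 TPM (a level per length) in at least 1 library, and their summed level was 9258 to 10463 TPM. Lum was low, with means of 0.30 TPM with RapaLink-1, 1.35 TPM with Torin1, 0.99 TPM with rapamycin and 1.83 TPM with DMSO. Of the listed markers of endothelial and muscle cells none reached 1 TPM, and Myod1, Myog and Cd3e had no counts in any library. Among the leukocyte, epithelial and neural markers 1 gene of each list reached 1 TPM. The leukocyte gene was Cd68, with group means from 6.40 TPM (rapamycin) to 7.08 TPM (Torin1). The neural sum, nearly all of it the tubulin Tubb3, was 5.06 to 7.17 TPM with RapaLink-1, 5.22 to 7.01 TPM with Torin1, 18.9 to 20.5 TPM with rapamycin and 22.8 to 30.2 TPM with DMSO. Total counts per library were 30075870 to 39423703, which left none of the 10 genes near the limit of detection: Dhodh, the one with the fewest, had 9050 counts over the 12 libraries.

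**Figure D1:**
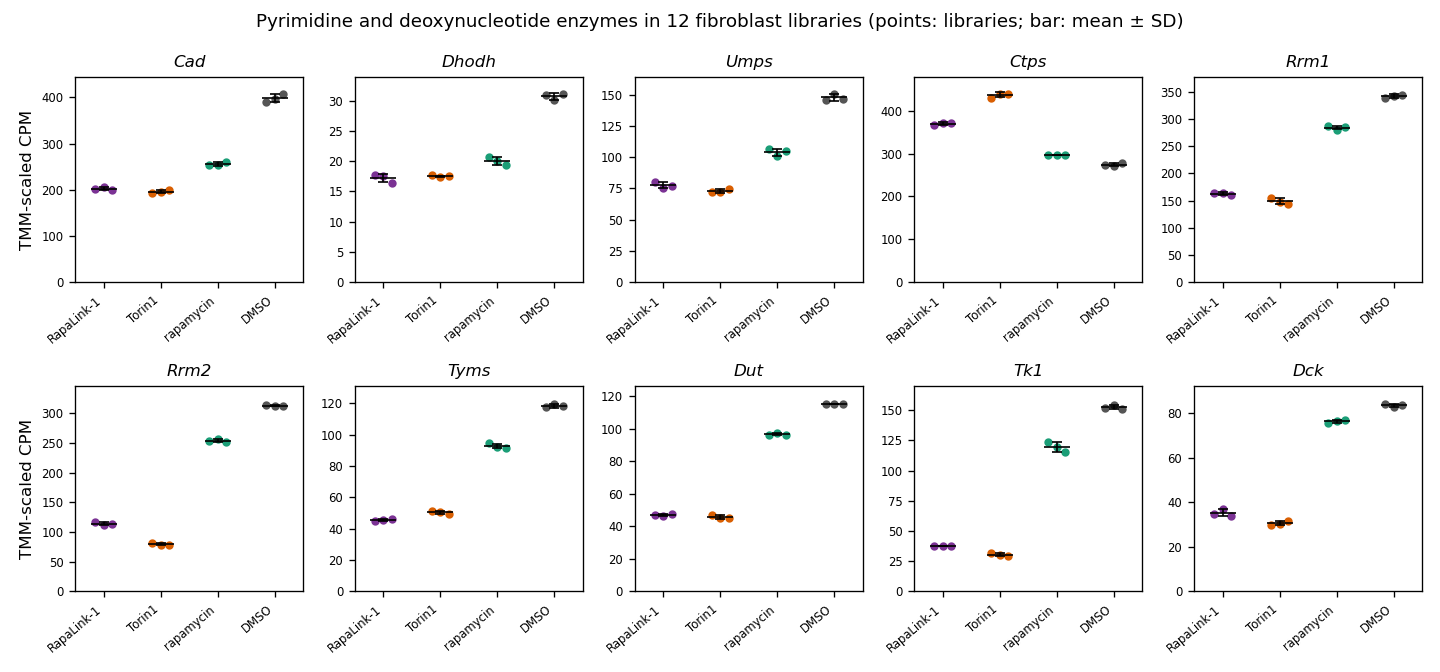
Level of each of the 10 enzymes' messages in every library, as CPM (counts relative to library size) scaled with TMM factors, on axes that start at 0; points are libraries, and bars are the mean ± SD of 3. The rapamycin points lie nearer to RapaLink-1 and Torin1 for Cad, Dhodh and Umps and nearer to DMSO for the 6 deoxynucleotide genes, and Ctps runs the other way.

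Cad (chr5:31054780-31078479, plus strand, GRCm38) had 202, 205 and 199.7 CPM in the RapaLink-1 libraries, 193, 196 and 199 CPM in the Torin1 libraries, 253, 255 and 261 CPM in the rapamycin libraries and 391, 397 and 408 CPM in the DMSO libraries. The treated libraries all lay below the DMSO libraries, and the rapamycin libraries lay between DMSO and the other compounds without overlap. Its log2 fold change against DMSO was -0.98 ± 0.02 (SE) with RapaLink-1, -1.02 ± 0.02 with Torin1 and -0.64 ± 0.02 with rapamycin (adjusted p = 4.44e-102, 5.97e-105 and 1.54e-75). Counted from the lowest log2 fold change of the 15917 genes tested, Cad was the 992nd with RapaLink-1, the 959th with Torin1 and the 403rd with rapamycin.

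Umps (chr16:33954782-33967038, minus strand) encodes the enzyme that closes the UMP pathway. It had 80.1, 75.5 and 76.7 CPM with RapaLink-1, 71.8, 72.2 and 74.5 CPM with Torin1, 106, 101 and 105 CPM with rapamycin, and 146, 151 and 147 CPM with DMSO. The groups followed the order of Cad, again with the rapamycin libraries apart on both sides. Against DMSO the log2 fold change was -0.93 ± 0.03 with RapaLink-1, -1.02 ± 0.03 with Torin1 and -0.51 ± 0.02 with rapamycin. The antisense gene Gm15829 covers 6.11% of the exonic bases of Umps and had 100 counts in all, against 42604 for Umps.

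Dhodh (chr8:109591343-109608673, minus strand), the mitochondrial step, fell least of the 3 with RapaLink-1 and with Torin1. It had 17.8, 17.5 and 16.5 CPM with RapaLink-1, 17.6, 17.4 and 17.5 CPM with Torin1, 20.7, 20.0 and 19.4 CPM with rapamycin, and 30.9, 30.1 and 31.1 CPM with DMSO. Here the rapamycin libraries lay close above the other treated ones and far below DMSO. The log2 fold change against DMSO was -0.84 ± 0.05 with RapaLink-1, -0.81 ± 0.05 with Torin1 and -0.62 ± 0.05 with rapamycin, the last ranking 460th from the lowest of all genes tested.

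Ctps (chr4:120539868-120570276, minus strand), the major CTP synthase, went against the rest. It had 366, 372 and 372 CPM with RapaLink-1, 430.0, 440.0 and 440.0 CPM with Torin1, 297, 297 and 297 CPM with rapamycin, and 273, 272 and 277 CPM with DMSO. All 9 treated libraries lay above the DMSO libraries, and the 4 groups did not overlap. The log2 fold change against DMSO was 0.43 ± 0.02 with RapaLink-1, 0.67 ± 0.02 with Torin1 and 0.12 ± 0.02 with rapamycin (adjusted p = 3.78e-56, 5.27e-83 and 3.57e-09), and the rapamycin value was 0.18 with upper-quartile scaling. It was 0.17 when genes with a mean under 5 CPM were left out. A near copy, Gm16465, which shares 1778 aligned bases at 92.3% identity, had 12 counts in all, against 144997 for Ctps.

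The reductase subunits fell unequally. Rrm1 (chr7:102441695-102469771, plus strand), the large subunit that holds the catalytic site, had 164, 164 and 159.7 CPM with RapaLink-1, 155, 147 and 144 CPM with Torin1, 288, 281 and 285 CPM with rapamycin, and 338, 343 and 345 CPM with DMSO. Rrm2 (chr12:24708241-24714146, plus strand), the small subunit that carries the tyrosyl radical, had 116, 111 and 114 CPM with RapaLink-1, 81.8, 78.4 and 77.8 CPM with Torin1, 253, 256 and 251 CPM with rapamycin, and 314, 312 and 312 CPM with DMSO. For both genes the RapaLink-1 and Torin1 libraries lay far below those of rapamycin, which lay close below DMSO. The log2 fold change of Rrm1 against DMSO was -1.07 ± 0.02 with RapaLink-1, -1.20 ± 0.02 with Torin1 and -0.27 ± 0.02 with rapamycin. That of Rrm2 was -1.46 ± 0.02, -1.98 ± 0.02 and -0.30 ± 0.02 in the same order (adjusted p = 7.88e-122, 1.37e-138 and 4.43e-35), and with Torin1 it was the 96th lowest of all genes tested.

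Tk1 (chr11:117815526-117826092, minus strand), the cytosolic thymidine kinase, fell most with RapaLink-1 and with Torin1, while with rapamycin Cad, Dhodh and Umps fell further. It had 37.8, 37.3 and 37.3 CPM with RapaLink-1, 31.4, 29.9 and 29.5 CPM with Torin1, 123, 119 and 115 CPM with rapamycin, and 152, 154 and 151 CPM with DMSO. The RapaLink-1 and Torin1 libraries lay far below the rapamycin libraries, which lay below DMSO without overlap. The log2 fold change against DMSO was -2.03 ± 0.03 with RapaLink-1, -2.34 ± 0.03 with Torin1 and -0.36 ± 0.02 with rapamycin, the 86th, 49th and 1847th lowest of all genes tested. Of its exonic bases, 1.60% overlap Afmid on the other strand, which had 1422 counts against 36168 for Tk1, so a small part of its counts is uncertain.

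Dck (chr5:88764996-88783281, plus strand), the kinase that salvages deoxycytidine, had 34.9, 37.1 and 33.9 CPM with RapaLink-1, 29.9, 30.2 and 31.6 CPM with Torin1, 75.6, 76.5 and 77.1 CPM with rapamycin, and 84.1, 82.9 and 83.9 CPM with DMSO. Of the 9 genes that fell, its rapamycin libraries came closest to DMSO, though still without overlap. The log2 fold change against DMSO was -1.24 ± 0.03 with RapaLink-1, -1.45 ± 0.03 with Torin1 and -0.13 ± 0.03 with rapamycin (adjusted p = 3.07e-05 for the last). The rapamycin value was -0.07 with upper-quartile scaling (adjusted p = 0.0359), and also when genes with a mean under 5 CPM were left out (adjusted p = 0.0195). In the main fit that value ranked only 5281st from the lowest of all genes tested.

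Tyms (chr5:30058202-30073617, minus strand), which methylates dUMP to dTMP, had 45.1, 45.6 and 45.9 CPM with RapaLink-1, 51.0, 50.9 and 49.3 CPM with Torin1, 94.4, 92.3 and 91.5 CPM with rapamycin, and 117, 119.8 and 118 CPM with DMSO. It was the one gene of deoxynucleotide supply with lower levels under RapaLink-1 than under Torin1, in every library. Dut (chr2:125247190-125258608, plus strand), the dUTPase that keeps uracil out of DNA and feeds dUMP to Tyms, had 46.9, 46.2 and 47.3 CPM with RapaLink-1, 46.8, 45.0 and 45.0 CPM with Torin1, 96.2, 97.0 and 96.1 CPM with rapamycin, and 115, 115 and 115 CPM with DMSO. Its RapaLink-1 and Torin1 libraries overlapped. Against DMSO the log2 fold change of Tyms was -1.38 ± 0.03 with RapaLink-1, -1.23 ± 0.03 with Torin1 and -0.35 ± 0.03 with rapamycin, and that of Dut was -1.30 ± 0.03, -1.34 ± 0.03 and -0.26 ± 0.03.

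Promoter sequences are shown for the reductase subunits, which fell unequally, and for Tyms, which went against Rrm2 in the comparison of RapaLink-1 with Torin1, because their windows held letters of the motifs searched for. The sequences are from RefSeq (GRCm38.p6), which gave a window of 300 bases, 250 before the start and 50 after it, for 9 of the 10 genes. Each stretch of 120 bases is written 5′ to 3′ on the gene's strand, with capitals marking CCAAT, the box bound by the factor NF-Y, in Rrm1 and Rrm2, and CACGTG, the E-box bound by MYC and related factors, in Tyms. The stretches are chr7:102441575-102441694 (plus strand) for Rrm1, chr12:24708121-24708240 (plus strand) for Rrm2 and chr5:30073626-30073745 (minus strand) for Tyms.
Rrm1: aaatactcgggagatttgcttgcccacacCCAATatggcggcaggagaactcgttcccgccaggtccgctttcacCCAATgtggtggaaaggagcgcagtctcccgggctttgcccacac
Rrm2: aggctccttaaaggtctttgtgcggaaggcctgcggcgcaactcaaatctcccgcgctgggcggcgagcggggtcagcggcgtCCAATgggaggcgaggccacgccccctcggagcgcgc
Tyms: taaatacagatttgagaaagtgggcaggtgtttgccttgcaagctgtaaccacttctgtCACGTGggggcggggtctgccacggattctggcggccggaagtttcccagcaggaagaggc

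Both strands were searched. CCAAT lay at -91 and -45 in Rrm1 and at -50 in Rrm2, counted from the RefSeq start, and in no other of the 9 windows, while 41.1% of the 27025 genes with a window held it. The RefSeq start of Rrm2 lies 13 bases inside the gene interval given above and that of Tyms a few bases upstream of it, while that of Rrm1 is the interval's first base. CACGTG lay at -61 in Tyms and in no other of the 9, against 8.09% of all windows. The E2F letters TTTCCCGC, TTTGGCGC, TTTCGCGC and TTTGCCGC were in none of the 9 windows and in 2.60% of all. A match is a description of letters and not of binding, and no match says only that these letters are not in this window.

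**Figure D2:**
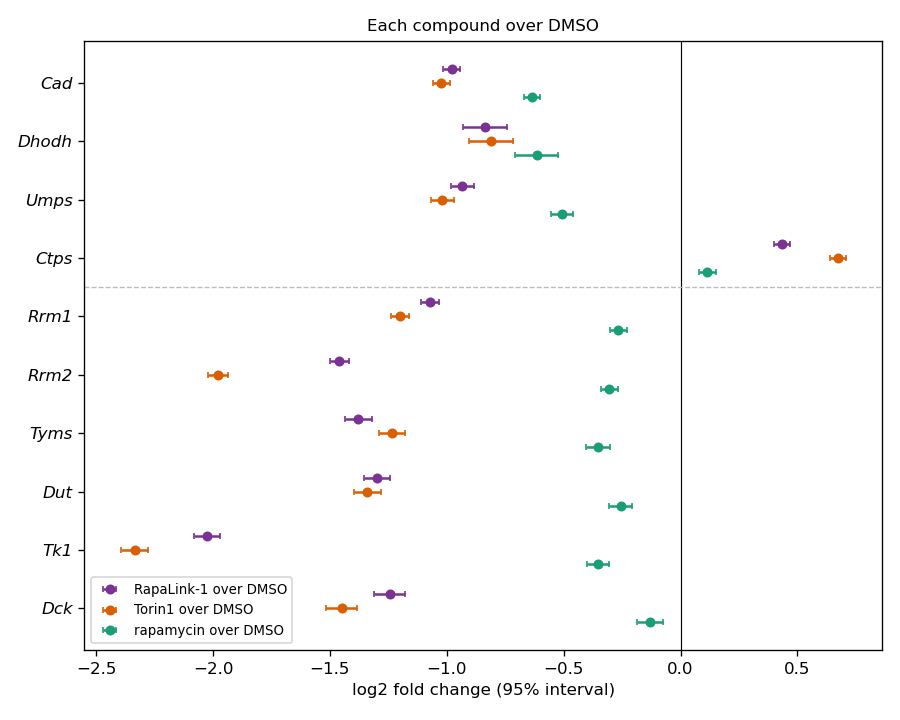
Log2 fold change of each enzyme's message with RapaLink-1, Torin1 and rapamycin, each over DMSO, with 95% intervals from the fit; the dashed line parts UMP and CTP synthesis above from deoxynucleotide supply below. The 3 rapamycin points of UMP synthesis lie at -0.64, -0.62 and -0.51, further left than any other rapamycin point, while the RapaLink-1 and Torin1 points reach furthest left at Tk1 (-2.03 and -2.34).

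Set directly against rapamycin, both compounds that reach the kinase site lowered the 9 genes further and raised Ctps further. Over all genes tested, 33.0% were called lower and 32.0% higher with RapaLink-1 against rapamycin, and 33.2% lower and 34.2% higher with Torin1 against rapamycin. The libraries of the 10 genes did not overlap in either comparison, and the same held for 67.4% of all genes with RapaLink-1 and 69.2% with Torin1. With upper-quartile scaling, 27.1% were lower and 39.6% higher with RapaLink-1 against rapamycin. The median log2 difference of the 10 genes was -0.92 with RapaLink-1 and -0.91 with Torin1, beside 0.01 and 0.02 over all genes tested.

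The UMP genes took smaller further steps than the deoxynucleotide genes. Relative to rapamycin, the log2 difference with RapaLink-1 and with Torin1 was -0.34 ± 0.02 and -0.39 ± 0.02 for Cad, -0.22 ± 0.05 and -0.19 ± 0.05 for Dhodh, and -0.43 ± 0.03 and -0.51 ± 0.03 for Umps. The steps of the deoxynucleotide genes were larger. Rrm1 stood at -0.81 ± 0.02 with RapaLink-1 and -0.93 ± 0.02 with Torin1, Tyms at -1.03 ± 0.03 and -0.88 ± 0.03, Dut at -1.04 ± 0.03 and -1.08 ± 0.03, and Dck at -1.12 ± 0.03 and -1.32 ± 0.03. Rrm2 stood at -1.16 ± 0.02 and -1.68 ± 0.02, and Tk1 at -1.67 ± 0.03 and -1.98 ± 0.03, the value with Torin1 being the 44th lowest of all genes tested. Ctps rose by 0.32 ± 0.02 and 0.56 ± 0.02. The largest adjusted p among these 20 values was that of Dhodh with Torin1, 0.000442.

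RapaLink-1 contains rapamycin with a linker and a kinase inhibitor added, so its comparison with rapamycin is between compounds that differ by a named change in structure, at doses of 10 nM and 20 ng/ml. In that comparison all 10 genes differed, without overlap between libraries, and the 95% interval of the log2 difference ran from -1.73 to -1.61 for Tk1, the largest, and from -0.32 to -0.12 for Dhodh, the smallest. With upper-quartile scaling the difference for Dhodh was -0.15 (adjusted p = 0.00955).

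Between RapaLink-1 and Torin1, 7 of the 10 genes differed. Over all genes tested, 16.4% were called lower and 16.7% higher with RapaLink-1 than with Torin1, and 33.2% in either direction. Higher with RapaLink-1 were Rrm2 by 0.52 ± 0.02 on the log2 scale, Tk1 by 0.31 ± 0.04, Dck by 0.21 ± 0.04, Rrm1 by 0.13 ± 0.02 and Umps by 0.09 ± 0.03. Lower were Ctps at -0.24 ± 0.02 and Tyms at -0.14 ± 0.03. For these 7 genes the 3 RapaLink-1 libraries did not overlap the 3 Torin1 libraries, a separation that 42.2% of all genes tested showed in one direction or the other.

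For the remaining 3 genes no difference between RapaLink-1 and Torin1 was called, which does not show equal levels. The 95% interval of the log2 difference was 0.01 to 0.08 for Cad (adjusted p = 0.0631), -0.13 to 0.08 for Dhodh (adjusted p = 0.767) and -0.02 to 0.11 for Dut (adjusted p = 0.379). The Cad libraries did not overlap, and 6 of the alternative settings brought its adjusted p under the threshold. The call for Umps was lost without RapaLink-1 replicate 1 (0.07, adjusted p = 0.0781).

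**Figure D3:**
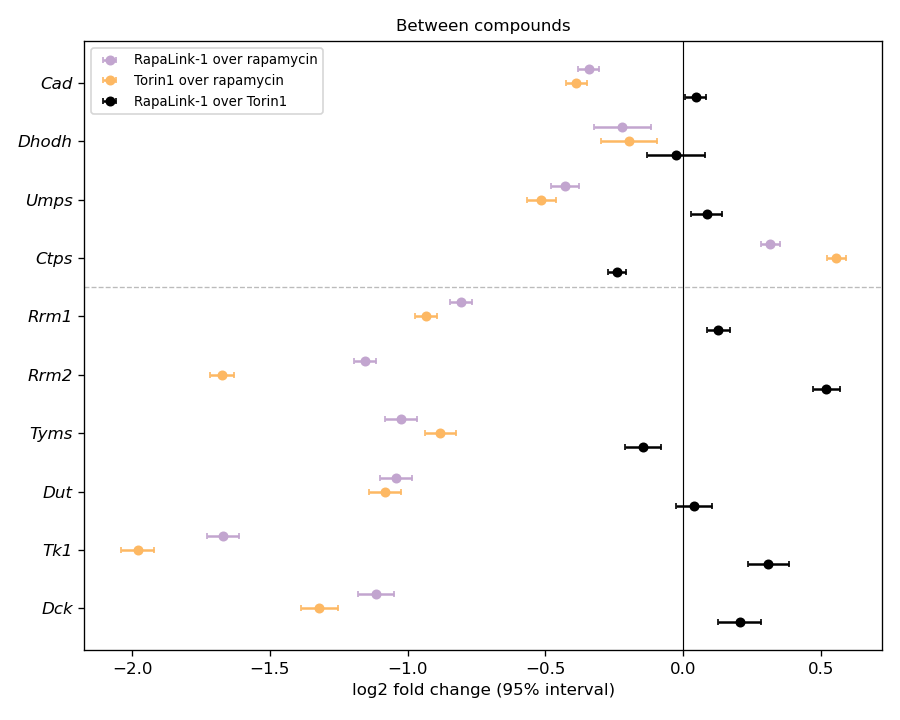
Log2 difference of each enzyme's message between compounds, with 95% intervals from the fit: RapaLink-1 over rapamycin, Torin1 over rapamycin and RapaLink-1 over Torin1. The black points for RapaLink-1 over Torin1 stay between -0.24 (Ctps) and 0.52 (Rrm2), while the coloured points for Tk1 reach -1.67 and -1.98.

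Because CPM does not take length into account, levels of different genes were compared as TPM, from the exonic lengths in the count tables. With DMSO, Rrm2 had the highest level of the 10 at 356 TPM, followed by Ctps at 261 TPM, and Dhodh had the lowest at 15.3 TPM. Ctps was the highest with RapaLink-1 at 365 TPM and with Torin1 at 415 TPM, and Dhodh stayed the lowest in all 4 groups. With the length of 1 principal transcript per gene in place of all exonic bases, a choice made after seeing the data, these first and last places held in the 3 groups named, but places between them moved: Tk1 was at 334 TPM with DMSO in that scale, against 92.6 TPM by exonic length.

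Paralogs of 3 of the enzymes were followed beside them. RRM2B is the small reductase subunit that p53 induces and that serves cells outside S phase, TK2 is the thymidine kinase of mitochondria, and CTPS2 is the other CTP synthase. All 3 paralogs were called higher with every compound against DMSO, Rrm2b with rapamycin only narrowly, while Rrm2 and Tk1 were lower and Ctps was higher.

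Rrm2b had 26.7, 24.6 and 24.5 CPM with RapaLink-1, 22.0, 22.5 and 21.1 CPM with Torin1, 15.9, 18.2 and 16.7 CPM with rapamycin, and 15.8, 15.3 and 14.9 CPM with DMSO. Every treated library was above DMSO, for rapamycin by a narrow gap. The log2 fold change against DMSO was 0.72 ± 0.05 with RapaLink-1, 0.51 ± 0.05 with Torin1 and 0.14 ± 0.06 with rapamycin (adjusted p = 0.0219 for the last). The rapamycin call was lost without rapamycin replicate 2 (0.09, adjusted p = 0.207), without DMSO replicate 3 (0.12, adjusted p = 0.0939), with no filter on low counts (0.13, adjusted p = 0.0617) and with DESeq2 (0.14, adjusted p = 0.0721). Tk2 had 25.5, 25.6 and 25.1 CPM with RapaLink-1, 26.4, 26.2 and 24.8 CPM with Torin1, 19.6, 18.5 and 18.6 CPM with rapamycin, and 16.6, 15.4 and 14.9 CPM with DMSO. Its log2 fold change was 0.70 ± 0.05, 0.72 ± 0.05 and 0.27 ± 0.05 in the same order of compounds. Ctps2 moved least of the 3 with RapaLink-1 and with Torin1, at 0.20 ± 0.03 with RapaLink-1, 0.24 ± 0.03 with Torin1 and 0.14 ± 0.03 with rapamycin.

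**Figure D4:**
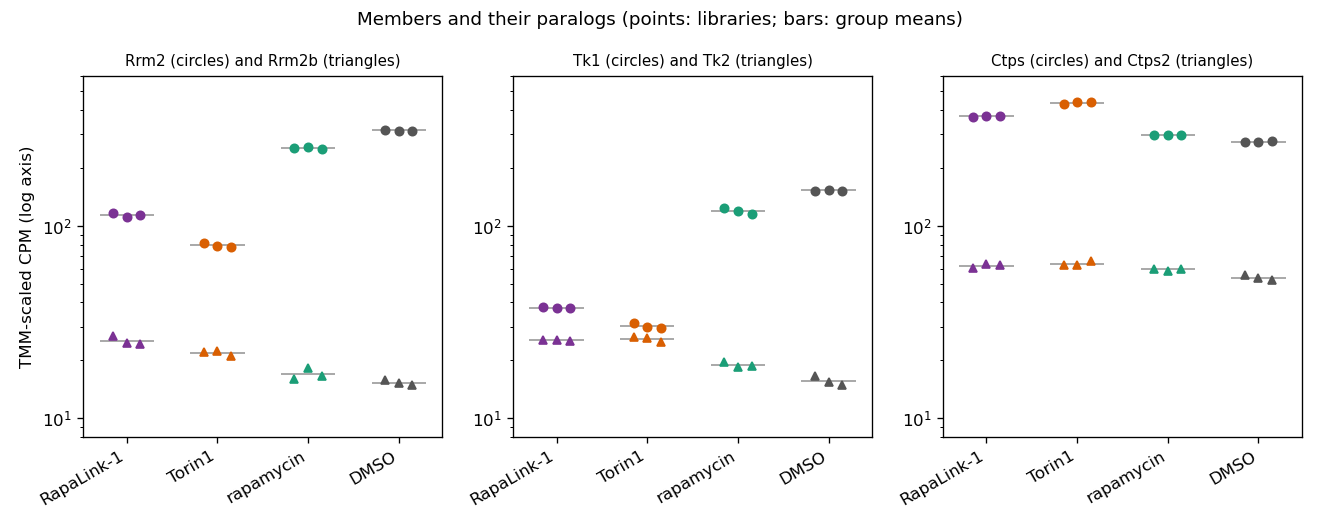
Levels of Rrm2, Tk1 and Ctps (circles) and of their paralogs Rrm2b, Tk2 and Ctps2 (triangles) in every library, in TMM-scaled CPM on a log axis, with bars at the group means. CPM does not take length into account, so levels are to be compared between groups and not between genes. With RapaLink-1 and Torin1 against DMSO, Rrm2 and Tk1 are lower and the 3 paralogs and Ctps are higher.

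The balance within such pairs was tested as the log2 ratio of TPM per library, for 5 ratios, by an exact permutation test of the F statistic over the 4 groups with 369600 arrangements and Benjamini-Hochberg adjustment over the 5. The levels of these ratios depend on the lengths used, but the differences between groups do not: by exonic length Tk1 was at 23.6 TPM with RapaLink-1 and 18.4 TPM with Torin1, beside 23.3 and 22.8 TPM for Tk2, while by the length of the principal transcript Tk1 was at 85.2 and 66.3 TPM and Tk2 at 34.6 and 33.8 TPM. Rrm2b over Rrm2 was 4.53-fold higher with RapaLink-1 than with DMSO, 5.63-fold higher with Torin1 and 1.37-fold higher with rapamycin (exact p = 6.49e-05, the smallest the arrangements can give, adjusted 0.000162). Tk2 over Tk1 was 6.61-fold, 8.31-fold and 1.55-fold higher in the same order (exact p = 6.49e-05, adjusted 0.000162). Dck over Tk1, the salvage kinases for deoxycytidine and thymidine, was 1.72-fold, 1.84-fold and 1.17-fold higher (exact p = 0.00013, adjusted 0.000216). For these 3 ratios each pair of a compound with DMSO gave an exact p of 0.1, the smallest that 3 libraries against 3 allow.

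Rrm2 over Rrm1, the ratio of the reductase subunits, was 0.765 times its DMSO value with RapaLink-1 and 0.583 times with Torin1. The exact p over the 4 groups was 0.000195 (adjusted 0.000244). Against DMSO alone, RapaLink-1 and Torin1 each gave an exact p of 0.1, the smallest that 3 libraries against 3 allow. With rapamycin the ratio was 0.974 times the DMSO value, and those groups overlapped (exact p against DMSO alone 0.3). Ctps2 over Ctps was 0.853 times its DMSO value with RapaLink-1, 0.741 times with Torin1 and 1.02 times with rapamycin. The exact p over the 4 groups was 0.000455 (adjusted 0.000455). Against DMSO alone the exact p was 0.1 with RapaLink-1, 0.1 with Torin1 and 0.7 with rapamycin.

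Around the 10 enzymes, 42 other genes of pyrimidine and deoxynucleotide metabolism were found and 40 passed the filter. Against DMSO, 24 were lower and 12 higher with RapaLink-1, 23 lower and 13 higher with Torin1, and 23 lower and 11 higher with rapamycin, with medians of -0.24, -0.19 and -0.19. With upper-quartile scaling 19 were lower and 15 higher with RapaLink-1, and 19 lower and 17 higher with Torin1. The genes named here are among those with the smallest p over the 4 groups. The nucleoside diphosphate kinase Nme1 had log2 fold changes of -1.39 with RapaLink-1, -1.56 with Torin1 and -0.59 with rapamycin. Thioredoxin (Txn1), a hydrogen donor for the reductase, was at -0.98, -0.96 and -0.20, and thioredoxin reductase (Txnrd1) at -0.58, -0.75 and -0.29.

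Mthfd1, which supplies one-carbon units on folate, was at -0.98 with RapaLink-1, -0.96 with Torin1 and -0.57 with rapamycin. On the other side, and named after their values were seen, were Dpyd, which starts pyrimidine breakdown, and the uridine-cytidine kinase-like Uckl1. Dpyd was at 1.58 with RapaLink-1 and 2.24 with Torin1, the highest of the 40 genes, and -0.24 with rapamycin (not called, adjusted p = 0.68). Its values are imprecise. The difference between RapaLink-1 and Torin1 lost its call with DESeq2 (-0.65, adjusted p = 0.13) and without Torin1 replicate 3 (-0.52, adjusted p = 0.195). Uckl1 was at 1.33 with RapaLink-1, 1.28 with Torin1 and 0.64 with rapamycin.

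Of 15 genes of purine synthesis, 12 were lower and 1 higher with RapaLink-1, 12 lower and 3 higher with Torin1, and 14 lower and 1 higher with rapamycin, with medians of -0.50, -0.60 and -0.41. Ppat, the committed step, was at -1.03 with RapaLink-1, -1.10 with Torin1 and -0.54 with rapamycin, and the trifunctional Gart at -0.82, -0.82 and -0.54. Atic, which closes the pathway to IMP, was at -0.42 with RapaLink-1 and -0.43 with Torin1, less far below DMSO than with rapamycin at -0.58.

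DNA replication and proliferation genes moved in the same direction as the deoxynucleotide enzymes. All 40 replication genes tested were lower with RapaLink-1 and with Torin1, also with upper-quartile scaling, and 37 were lower and 1 higher with rapamycin (35 and 2 with upper-quartile scaling), with medians of -1.01, -1.05 and -0.36. Mcm5, a subunit of the replicative helicase, was at -1.70, -1.79 and -0.63, and the sliding clamp Pcna at -1.31, -1.45 and -0.42. All 10 proliferation markers were lower with RapaLink-1 and with Torin1 and 9 with rapamycin (8 lower and 1 higher with upper-quartile scaling), with medians of -1.24, -1.55 and -0.24. Mki67 had 173 CPM with RapaLink-1, 138 CPM with Torin1, 336 CPM with rapamycin and 395 CPM with DMSO. Between RapaLink-1 and Torin1, all 10 proliferation markers were higher with RapaLink-1 (median 0.29), as were Rrm2, Tk1, Dck, Rrm1 and Umps. Tyms and Ctps were lower with RapaLink-1, and Dut, Cad and Dhodh were not called. Of the 40 replication genes, 22 were higher and 4 lower with RapaLink-1 than with Torin1 (median 0.09). The part of these cell cycle messages in the changes of the 10 enzymes was not tested. In bulk RNA fewer cells of a kind, such as cells in S phase, and less RNA per cell cannot be told apart.

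**Figure D5:**
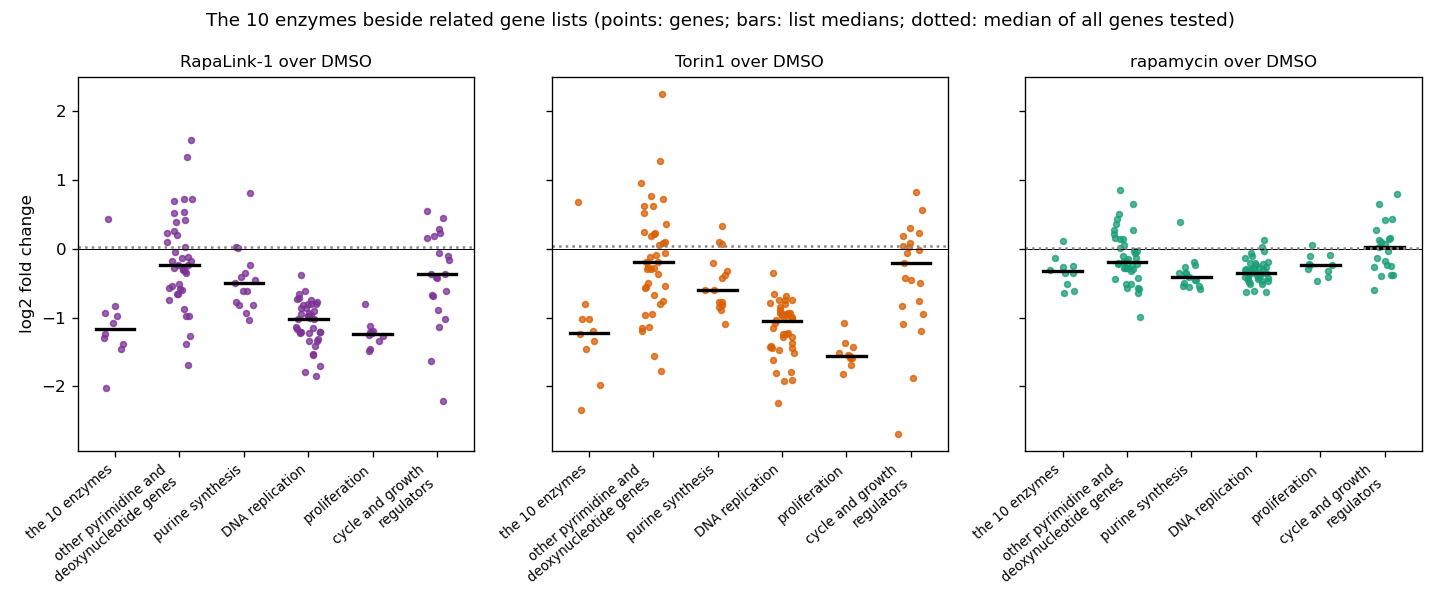
Log2 fold changes over DMSO with RapaLink-1, Torin1 and rapamycin for the 10 enzymes and 5 related gene lists; each point is a gene, bars are list medians and the dotted line is the median of all genes tested. With rapamycin the medians of the 10 enzymes (-0.33), purine synthesis (-0.41) and DNA replication (-0.36) lie close together, and with Torin1 the proliferation markers (-1.55) and the 10 enzymes (-1.22) lie lowest.

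Among 21 transcription factors and growth regulators, E2f4, E2f7 and E2f8 went down with RapaLink-1 and Torin1, and Myc, known to drive Cad, went up. The E2F family is known to control S-phase genes, but its other listed members, E2f1, E2f2, E2f3, E2f5 and E2f6, are only counted here. No direction is therefore given for the family. E2f8 was at -1.63 with RapaLink-1, -1.87 with Torin1 and -0.40 with rapamycin, E2f4 at -1.02, -0.95 and -0.38, and the E2F partner Tfdp1 at -1.14, -1.20 and -0.38. E2f7 was at -0.68 with RapaLink-1, -1.09 with Torin1 and 0.03 with rapamycin, the last not called (adjusted p = 0.37) but called with upper-quartile scaling (0.09, adjusted p = 0.00223). Myc had 157 CPM with RapaLink-1, 190.3 CPM with Torin1 and 145 CPM with rapamycin, against 107 CPM with DMSO, and was called higher with each (log2 fold changes 0.55, 0.83 and 0.43). Over the whole list 14 were lower and 6 higher with RapaLink-1, 12 lower and 6 higher with Torin1, and 9 lower and 8 higher with rapamycin.

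The genes most like each enzyme were found among 9165 tested genes whose mean reached 10 CPM, by the smallest root mean square difference over the 12 libraries of log2 CPM centred on the gene's own mean. This is a description over libraries that share their groups. Nearest to Cad were Stip1, a co-chaperone, the valyl-tRNA synthetase Vars and the proteasome subunits Psmd2 and Psmc2. Nearest to Dhodh were the glycolytic Eno1, the chaperonin subunit Cct3 and the asparaginyl-tRNA synthetase Nars, and nearest to Umps were the nuclear pore gene Nup205, the helicase subunit Mcm2 and the ribosome assembly gene Bop1.

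The deoxynucleotide genes had other neighbours. Nearest to Rrm1 were Kif4, Ube2c and Cdca4, and nearest to Rrm2 were the PCNA-associated Pclaf, Ucp2 and Fanca. Nearest to Dck were Incenp, Gins3 and Gtse1, genes of mitosis and replication. Tk1 lay nearest to the growth factor Ptn and the G1/S cyclin Ccne1, at differences of 0.0787 and 0.108, further than the nearest neighbour of Cad at 0.0399. Nearest to Tyms were the sterol synthesis genes Hmgcs1 and Sqle, at 0.0379 and 0.0474, and nearest to Dut was the secreted stress protein Manf. Among the genes nearest to Ctps were Arl5a and Ngly1, and Ngly1 had log2 fold changes against DMSO of 0.48 with RapaLink-1, 0.67 with Torin1 and 0.11 with rapamycin.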

How the data were processed

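Total RNA of mouse embryonic fibroblasts was sequenced in 12 libraries, grouped by the treatment label. The authors deposited 1 table per library of raw counts, whole numbers of reads assigned to each gene, in the layout of featureCounts per the file headers. The submitters' processing notes list Trimmomatic 0.36, STAR 2.5.2b, Subread 1.5.2, DESeq2 and, as the build, GRCm38. No source used here states the strand setting or how multiply placed reads were counted, so antisense neighbours and near copies may share reads. Overlap was read from the exon intervals of the tables, and near copies were transcripts with at least 90% identity over at least 200 bases and 15% of the member's transcript.

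The members and gene lists were chosen with earlier results of these data known. Symbols were matched through GENCODE M21 (175 of 176 listed symbols). Tests used edgeR 4.0.16 under R 4.3.3, with DESeq2 1.42.0 as an alternative: filterByExpr by group left 15917 genes, TMM scaling, and a robust quasi-likelihood fit of all 12 libraries with group as the only term (8 residual degrees of freedom), 6 contrasts, two-sided, Benjamini-Hochberg adjustment over all genes. The fit drew each gene's spread towards that shared over genes, with a median of 154 prior degrees of freedom beside the 8 residual ones. Small p-values and SEs of single genes therefore rest largely on this sharing. The common biological coefficient of variation was 1.48%. The procedure was tested on simulated data in which far fewer genes changed than were called here. That test therefore cannot show how the scaling behaves when most genes change. Ratios between genes were tested by exact permutation of libraries, two-sided. All members and 3 paralogs are named, and in each list up to 6 genes with the smallest p over the 4 groups. A few genes that these rules would name are not reported here. Alternatives were other scalings, filters and tests, the 2 groups alone, a replicate block and leaving out each library. The labels do not say whether replicate numbers pair samples. Correlations of deviations from the group means were -0.06 to 0.10 for same-numbered libraries and -0.11 to 0.10 for the others. Such weak correlations cannot show that samples were unpaired. Libraries of a group differed by more than sampling noise, so none was counted as a duplicate.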

Additional observations from a re-analysis of the deposited data

How the results depend on the processing

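The calls of the 10 enzymes against DMSO and against rapamycin, 50 in all, kept their direction and stayed called under every alternative run, with a highest adjusted p of 0.0359 (Dck, rapamycin against DMSO, upper-quartile scaling). Their counts were the same as reported in 221 of 228 repeats, and the other 7 all concerned RapaLink-1 against Torin1, where 4 or 6 genes in place of 5 were called higher. There Cad was called with DESeq2 size factors (0.06, adjusted p = 0.0188), upper-quartile scaling (0.06, 0.0176) and DESeq2 (0.06, 0.0442), and without rapamycin replicate 1 (0.05, 0.0478), Torin1 replicate 3 (0.06, 0.0177) or RapaLink-1 replicate 3 (0.06, 0.0227). The log2 ratio of Ctps2 over Ctps, rapamycin minus DMSO, was 0.0257 and ranged from -0.00288 (without DMSO replicate 3) to 0.0481 when each library was left out, so its direction rests on that library. The cause was not tested.

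With the replicate number as a block, 6030 genes were lower and 6154 higher with RapaLink-1 against DMSO, and no call of the 10 enzymes changed. Whether the numbers pair samples is not stated: 1 of 18 same-numbered correlations was over 0.1, and 0 of the 36 others. Of the counts over the other gene lists, 36 of 1140 repeats moved by more than 1.5 times, all of them small counts. The effect of depth was not tested. Dhodh, with 544 to 638 counts per RapaLink-1 library and 548 to 655 per Torin1 library, had a 95% interval of -0.13 to 0.08 between those compounds. What further limits the results is that the 3 libraries of a group may share a culture, and that each compound was given at a single dose and time.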
